A study of Mus musculus with 103 samples.

Results

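A set of 8 genes of the distal lung and conducting airways was followed over 103 mouse arrays: 4 surfactant protein genes (Sftpa1, Sftpb, Sftpc and Sftpd), 3 secretoglobin genes (Scgb1a1, Scgb3a1 and Scgb3a2) and Ager. They were taken by gene symbol, as the platform annotation pairs symbols with probe sets. The 8 genes were among 12394 genes with a symbol of their own and were read by 10 of the 22690 probe sets, 2 each for Sftpa1 and Sftpc and 1 for each of the other genes. A probe set is the group of short array oligonucleotides that together give 1 value for a transcript. Those 2 pairs are named below by their probe set identifiers.

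The series compared ways of labelling very small amounts of RNA for Affymetrix arrays. Total RNA of 8 tissues (lung, embryo, heart, kidney, ovary, spleen, brain and liver, as labelled) came from a commercial mouse tissue panel and was on 16 arrays, with 1 array per tissue from 1 ug of RNA by the standard one-cycle kit, which hybridises cRNA, and 1 from 500 pg by BIIB, a protocol developed at Biogen Idec that hybridises cDNA. The labels gave no strain, age or number of animals for the panel. The 2 lung arrays are therefore labellings of purchased lung RNA by different protocols rather than separate animals. With tissue and protocol as terms, tissue p-values rest on how the protocols disagreed across tissues. They do not measure a spread between animals or between repeat labellings. The remaining arrays held Stratagene universal mouse RNA (58 arrays: one-cycle from 1 ug, the two-cycle, Ovation and RiboAmp HS kits from 500 ng down to 50 pg, and BIIB from 5 ng down to 10 pg), flow-sorted primary T and B lymphocytes in 6 mixing ratios (18 arrays of 100 or 500 cells, BIIB) and flow-sorted cultured RAW267 cells (11 arrays of 50 to 10000 cells, BIIB). In total RNA of a whole tissue, fewer cells of a type and less RNA per cell cannot be told apart.

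Pulmonary surfactant is a film of lipid and protein that lowers surface tension in the alveoli and is made by alveolar type II cells. Sftpb and Sftpc encode its small hydrophobic proteins, which help the lipids spread, and Sftpa1 and Sftpd encode collectins, secreted lectins that bind microbes. Secretoglobins are small secreted proteins of airway epithelium, and Scgb1a1 is the classic product of club cells. Ager encodes RAGE, a receptor of the immunoglobulin family that in lung is most abundant on alveolar type I cells, the flat cells of gas exchange. Nkx2-1 and the Foxa factors are known regulators of several of these genes.

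The stretches upstream of 3 of the genes are shown because the members moved together in lung. They are RefSeq sequence of the GRCm38.p6 build, 250 bases ending just before the annotated start of the gene, 5′ to 3′ on the strand of the gene. Capitals mark matches to CTCAAG, a core motif bound by NKX2-1, and to TGTTTNC, a core motif of FOXA factors, where N is any base. Both strands were searched, and both motifs were chosen after the sequences had been seen.
Sftpb: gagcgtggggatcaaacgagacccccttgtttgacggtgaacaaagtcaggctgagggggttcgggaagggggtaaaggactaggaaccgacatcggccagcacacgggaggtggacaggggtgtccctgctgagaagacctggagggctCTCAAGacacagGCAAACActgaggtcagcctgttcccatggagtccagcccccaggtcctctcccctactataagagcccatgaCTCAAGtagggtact
Sftpa1: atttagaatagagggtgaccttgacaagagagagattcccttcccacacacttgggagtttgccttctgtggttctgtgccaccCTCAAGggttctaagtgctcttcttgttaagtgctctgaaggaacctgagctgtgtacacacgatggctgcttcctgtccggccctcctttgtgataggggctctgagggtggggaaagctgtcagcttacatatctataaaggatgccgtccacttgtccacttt
Scgb3a1: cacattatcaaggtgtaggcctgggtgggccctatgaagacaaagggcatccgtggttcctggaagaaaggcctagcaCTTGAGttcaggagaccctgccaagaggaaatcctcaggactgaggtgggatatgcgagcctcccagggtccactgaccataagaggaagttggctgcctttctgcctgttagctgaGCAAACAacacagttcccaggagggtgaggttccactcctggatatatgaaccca
The windows are chr6:72304360-72304609 for Sftpb, chr14:41131538-41131787 for Sftpa1 and chr11:49663345-49663594 for Scgb3a1, all on the plus strand. Counted from the start of the gene, the Sftpb window held CTCAAG at -100 to -95 and at -15 to -10, and the FOXA motif on the minus strand at -88 to -82. In Scgb3a1 both motifs lay on the minus strand, CTCAAG at -172 to -167 and the FOXA motif at -55 to -49. Sftpa1 held CTCAAG at -166 to -161 and no match to the FOXA motif. Of 32851 promoter windows of this length, 13.3% held CTCAAG, 17.8% held TGTTTNC and 2.5% held both, so short matches of this kind are common. A match is a description of the letters and not evidence of binding. The window listed for Ager, chr17:34597600-34597849, was searched in the same way and held neither motif. It is not shown because it lies inside the annotated gene, at 34597460 to 34600937. Upstream windows of Sftpc, Sftpd, Scgb1a1 and Scgb3a2 were not analysed here.

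Values are MAS5 signals, a linear intensity in arbitrary units scaled by array, and levels of different probe sets cannot be set against each other. The median signal of all probe sets was 824 over the one-cycle and 554 over the BIIB tissue arrays, and signals below these lie under the middle of an array. The tissue labels were checked against marker lists of each tissue. Lung, heart, kidney, ovary, spleen and embryo arrays carried their own markers. The arrays labelled brain carried liver markers, with 9 of 9 liver genes highest there under both protocols, and those labelled liver carried brain markers, with 9 of 9 brain genes highest there. They are therefore called the arrays labelled brain and labelled liver throughout. All members were low on both, and leaving these 4 arrays out left 9 of 10 member probe sets called higher in lung.

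**Figure D1:**
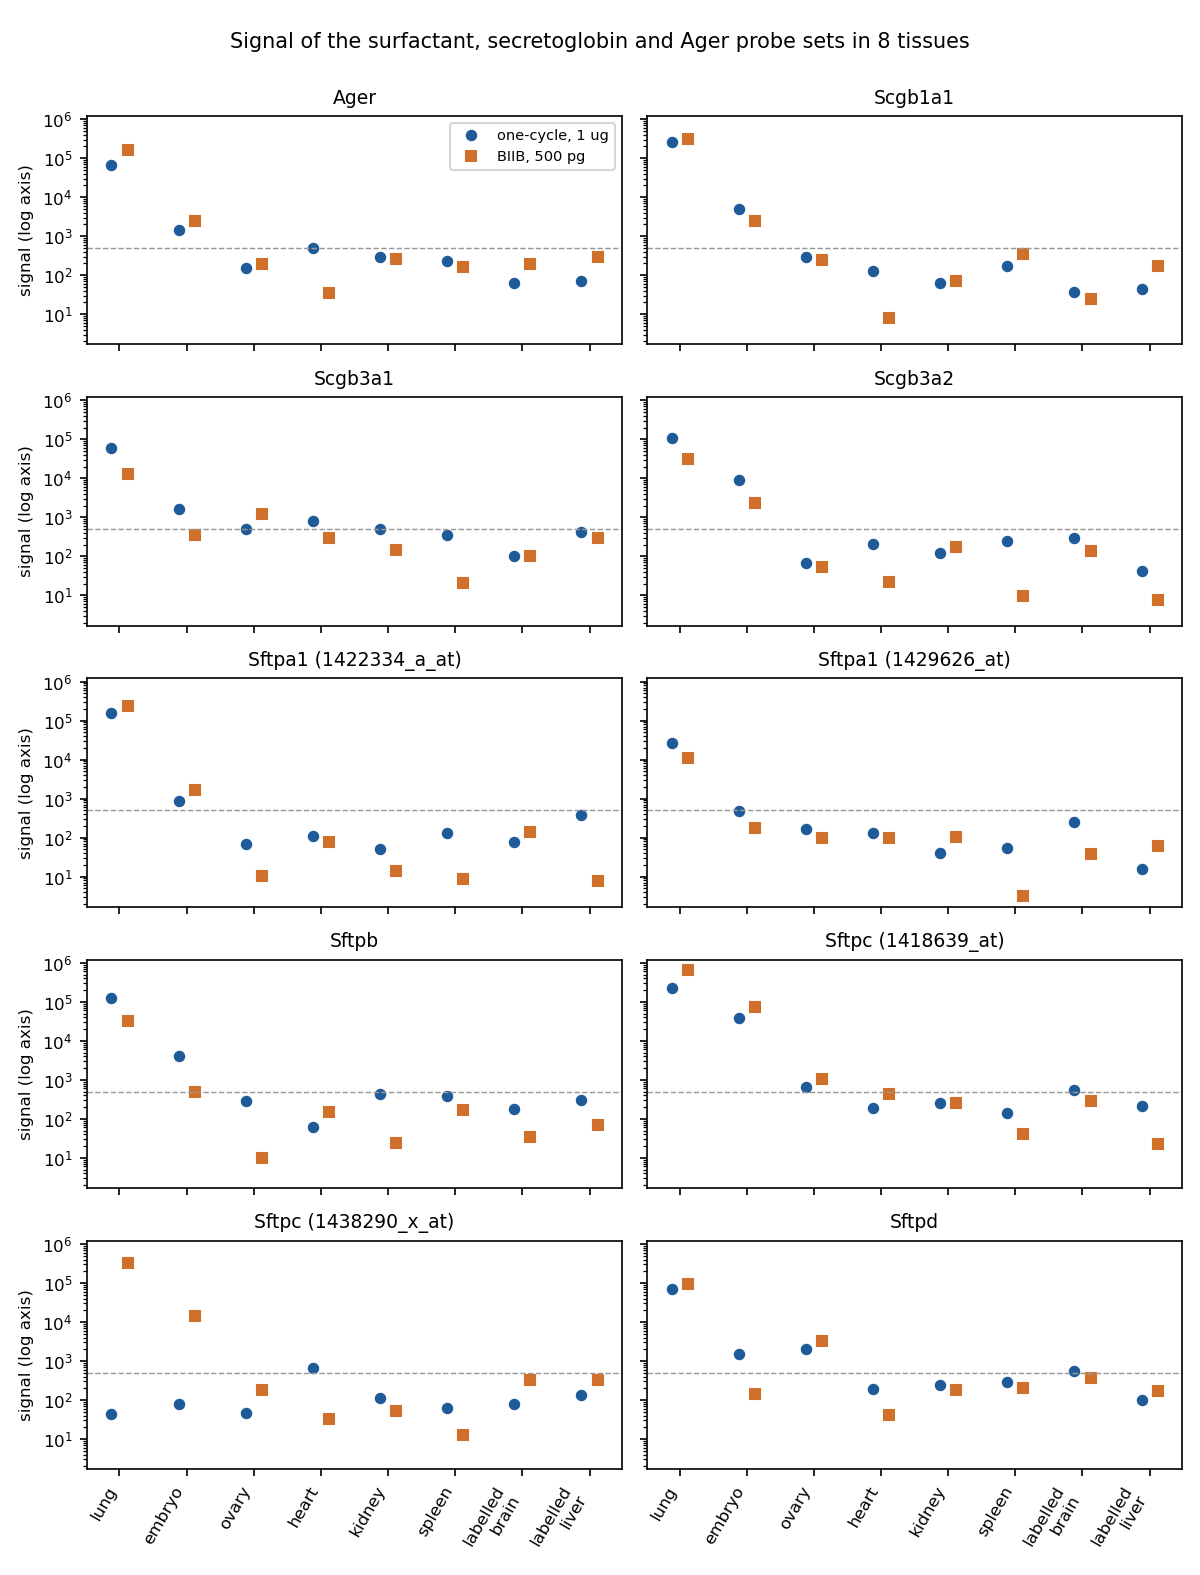
Signal of each member probe set (y axis, arbitrary units, log axis) in the 8 tissues (x axis), with blue circles for one-cycle from 1 ug and orange squares for BIIB from 500 pg, 1 array per point; the dashed line marks a signal of 500. Lung is the highest tissue in every panel except for the one-cycle point of Sftpc 1438290_x_at, and embryo is second in most.

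The surfactant, secretoglobin and Ager transcripts were far more abundant in lung than in any other tissue RNA under both protocols, except on 1 Sftpc probe set by one-cycle. Of the 10 member probe sets, 9 were called higher in lung than in the mean of the other 7 tissues by limma (Benjamini-Hochberg adjusted p under 0.05 and at least 2-fold), where 12.4% of the 15180 probe sets tested were called higher and 9% lower. The 9 changes ran from 5.85 to 9.69 on the log2 scale (signal plus a pseudocount, given with the processing), against a median of 0.05 over all probe sets tested. Of the 10, 5 passed the filter on mean signal only through lung, and 4 others only through lung and embryo, so the count is a description. The same 9 were also called higher in lung than in each of the 7 tissues taken singly, where 10.6% of probe sets were called higher against embryo, 13.9% against heart, 15.1% against kidney, 7.24% against ovary, 16.6% against spleen, 24.3% against the arrays labelled brain and 17.6% against those labelled liver. The plot of signals by tissue shows these separations probe set by probe set.

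Sftpb, whose product is required for the surfactant film to form, had a lung signal of 123177 by one-cycle and 31754 by BIIB. The next tissue was embryo under both protocols, at 4147 and 490. In the other 6 tissues its 12 values ran from 9.6 to 436, with a median of 163. The lung values thus lay far above every other array, 29.7 times the embryo value by one-cycle and 64.9 times by BIIB. The lung difference from the other 7 tissues was 7.49 ± 0.46 (log2, SE, adjusted p = 1.24e-06, limma).

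Sftpc encodes the surfactant protein most restricted to type II cells. Its probe set 1418639_at read 228165 in lung by one-cycle and 654875 by BIIB. Embryo was again second, at 39434 and 74974, which was the narrowest gap to lung of any called member. Lung exceeded embryo 5.79 times by one-cycle and 8.74 times by BIIB (2.83 ± 0.58 log2, SE, adjusted p = 0.00479, limma). Without the BIIB lung array this difference was 2.05 ± 0.66 and was not called (adjusted p = 0.0716). The 12 arrays of the other 6 tissues lay between 22.6 and 1063, the 2 ovary arrays being the highest under their own protocol at 667 and 1063. The lung difference from the other 7 tissues was 8.92 ± 0.44 (log2, SE, adjusted p = 2.69e-07, limma).

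The second Sftpc probe set, 1438290_x_at, behaved unlike the first. Its lung signal was 42.7 by one-cycle and 325259 by BIIB. Embryo showed the same split, at 79.8 and 13901. The suffix of its name is the manufacturer's mark for probe sets whose oligonucleotides may match other transcripts. By one-cycle all 8 tissues lay between 42.7 and 681, with heart highest, so lung was the lowest tissue there and the highest by BIIB. Its lung difference was -0.60 ± 1.51 by one-cycle and 9.53 ± 1.51 by BIIB (log2, SE). The change between protocols was 10.12 ± 2.14 (log2, SE), with an unadjusted p of 0.000663 and no call after adjustment over 15180 probe sets. Over both protocols its lung difference of 4.47 ± 1.80 was the single member value that was not called (log2, SE, adjusted p = 0.0911, limma). Without the one-cycle lung array it was 9.53 and called (adjusted p = 0.00287), and without the BIIB lung array -0.60. Without the embryo arrays the change between protocols was 11.01 ± 1.10 and was called (adjusted p = 0.0293), and it was called as well without either embryo array singly. One-cycle arrays were hybridised with cRNA and BIIB arrays with cDNA. The strand that these oligonucleotides read was not analysed here. On the same one-cycle arrays 1418639_at read 228165 in lung and 39434 in embryo, so 42.7 is not a reading of low Sftpc in lung. How closely 325259 reflects the Sftpc level is not known. What set the protocols apart on this probe set was not tested.

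Sftpa1 and Sftpd, the collectin genes, lie near each other on chromosome 14, with the pseudogene Gm7920 and the collectin gene Mbl1 listed between them in RefSeq. Sftpa1 probe set 1422334_a_at read 154426 in lung by one-cycle and 237123 by BIIB, against 856 and 1700 in embryo. All 12 values of the other 6 tissues were 390 or less, with a median of 71.8. This was the widest relative gap between lung and the next tissue, 181 times by one-cycle and 139 times by BIIB, and the lung difference was 9.52 ± 0.43 (log2, SE, adjusted p = 1.86e-07, limma). The other Sftpa1 probe set, 1429626_at, also had lung first and embryo next under both protocols, while the order of the remaining tissues differed. Lung read 27169 and 11313 on it, and no other tissue array was above 484. Its lung difference was 6.28 ± 0.34 (log2, SE, adjusted p = 5.09e-07).

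Sftpd read 69326 in lung by one-cycle and 94046 by BIIB. Its next tissue was ovary under both protocols, at 1976 and 3299. Embryo Sftpd was 1506 by one-cycle and 139 by BIIB, so its embryo arrays disagreed more than 10-fold while both ovary arrays were high. The lung difference was 7.35 ± 0.48 (log2, SE, adjusted p = 1.67e-06), and lung exceeded ovary by 4.91 ± 0.63 (log2, SE, adjusted p = 0.000383, limma). Mbl1, the mannose-binding lectin gene between Sftpa1 and Sftpd, had lung signals of 385 and 298 and a lung difference of -0.50 ± 0.41 (log2, SE, adjusted p = 0.411). Of the 3 collectin relatives on the array outside the surfactant group, 2 were tested, none was called higher in lung and Mbl2 was called lower, at -2.76 ± 0.50 (log2, SE, adjusted p = 0.00199).

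Scgb1a1, the club cell secretory protein gene, gave the most precise separation. It read 267683 in lung by one-cycle and 314716 by BIIB, against 4939 and 2511 in embryo. The 12 arrays of the other 6 tissues lay between 8.0 and 340. Its lung difference of 9.69 ± 0.33 had the lowest adjusted p of all 15180 probe sets tested (log2, SE, adjusted p = 3.69e-08, limma).

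Scgb3a2, an airway secretoglobin expressed from early lung development, read 106297 in lung by one-cycle and 31854 by BIIB. Embryo read 9002 and 2390, and no array of the other 6 tissues exceeded 299.9. Lung was therefore 11.8 and 13.3 times embryo, a ratio nearer to that of Sftpc than to that of Scgb1a1. The lung difference was 7.39 ± 0.38 (log2, SE, adjusted p = 3.3e-07).

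Scgb3a1, the secretoglobin with the smallest called lung difference, read 60785 in lung by one-cycle and 12865 by BIIB. Its next tissue was embryo by one-cycle, at 1671, and ovary by BIIB, at 1217. Its 12 values in the other 6 tissues had a median of 332, and 4 of them were above 500. The lung difference was 5.85 ± 0.50 (log2, SE, adjusted p = 1.2e-05).

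Ager read 66193 in lung by one-cycle and 164860 by BIIB. Embryo was next at 1473 and 2503, and the 12 other arrays lay between 35.7 and 499. Lung was 44.9 and 65.9 times embryo, and the lung difference was 8.02 ± 0.47 (log2, SE, adjusted p = 1.05e-06, limma).

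The protocols differed by gene in the size of the lung signal. With all arrays no member was called for a change in its lung difference between protocols. The largest such change was the 10.12 ± 2.14 of Sftpc 1438290_x_at given above (log2, SE). BIIB gave the higher lung signal for Sftpc 1418639_at (2.87 times one-cycle), Ager (2.49 times), Sftpa1 1422334_a_at (1.54 times), Sftpd (1.36 times) and Scgb1a1 (1.18 times). One-cycle gave the higher signal for Scgb3a1 (4.73 times BIIB), Sftpb (3.88 times), Scgb3a2 (3.34 times) and Sftpa1 1429626_at (2.40 times). The 2 Sftpa1 probe sets thus went in opposite directions. With Sftpc 1438290_x_at set aside, the lung difference by BIIB minus that by one-cycle ran from -1.47 ± 0.94 for Scgb3a1 to 1.55 ± 0.79 for Sftpc (log2, SE). No member was called for this interaction by limma, 1 of 10 had an unadjusted p under 0.05, and 0 of all 15180 probe sets were called (0%), while 4.08% had an unadjusted p under 0.05. The call of Sftpc 1438290_x_at without embryo arrays, given above, was the exception among the alternatives. A p that misses the threshold does not show that the protocols read these genes alike.

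**Figure D2:**
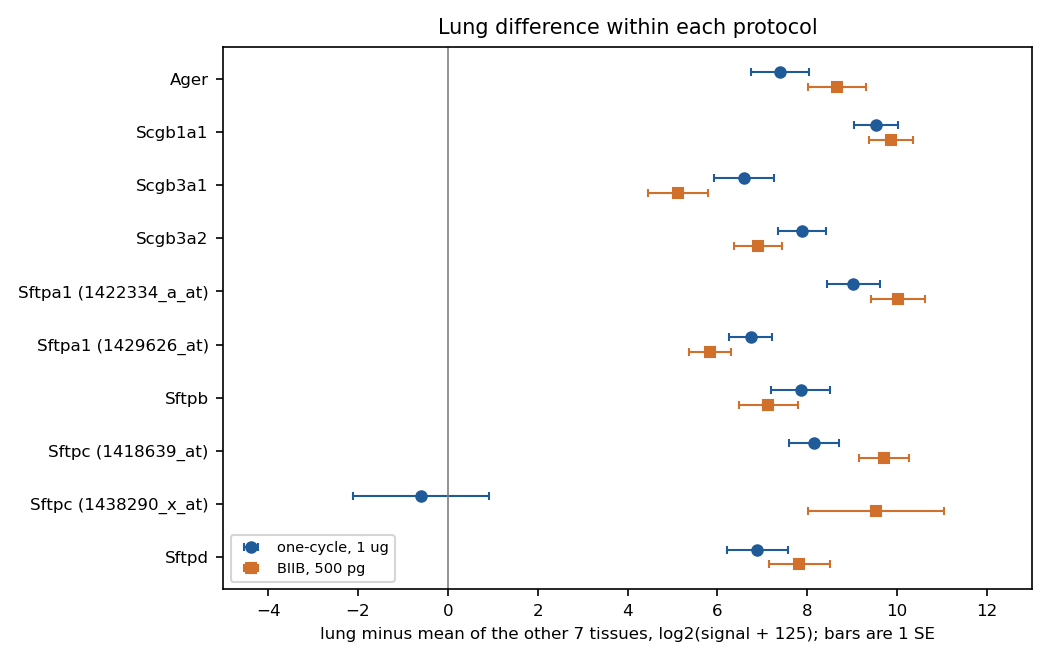
Lung minus the mean of the other 7 tissues on the log2 scale with a pseudocount (x axis) for each member probe set (y axis), within one-cycle (blue circles) and within BIIB (orange squares); bars are 1 SE from the fit of 16 arrays. For 9 probe sets both protocols lie between 5.12 and 10.02, and for Sftpc 1438290_x_at one-cycle lies at -0.60 and BIIB at 9.53.

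With 1 protocol at a time there was 1 lung array against 7 others, and the spread then also held the differences among those 7 tissues. In that setting 1 of 9 member probe sets tested was called by one-cycle and 0 of 10 by BIIB, where 0.0129% and 0% of all probe sets were called higher. Sftpc 1438290_x_at did not pass the filter by one-cycle. The differences of the members tested kept their direction, from 6.59 to 9.53 by one-cycle and from 5.12 to 10.02 by BIIB.

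Traces outside lung were tested with the lung arrays left out, each tissue against the mean of the other 6. The filter on mean signal then left 5 of the 10 member probe sets. In embryo 3 were called higher, where 10.8% of 15135 probe sets were called higher and 5.55% lower. These 3 passed the filter only through embryo, since their mean signals over the other 6 tissues were 341, 117 and 133 for Sftpc, Scgb3a2 and Scgb1a1, so nothing is read from the count against that share. Sftpc 1418639_at stood 7.11 ± 0.40 above the other 6 tissues (log2, SE, adjusted p = 9.59e-07), Scgb3a2 4.42 ± 0.38 (adjusted p = 1.99e-05) and Scgb1a1 3.94 ± 0.35 (adjusted p = 2.32e-05, limma). Embryo Sftpc signal was 59.2 times the highest of the other 6 tissues by one-cycle and 70.5 times by BIIB, and for Scgb3a2 these ratios were 30.0 and 13.3. Sftpc 1438290_x_at, at 2.73 ± 1.08 (adjusted p = 0.107), and Sftpd, at 0.47 ± 0.49 (adjusted p = 0.546), were not called. Sftpd in embryo turned to -0.77 without the one-cycle embryo array and was 1.71 without the BIIB embryo array. Without the one-cycle embryo array Sftpc 1438290_x_at was called at 5.83 (adjusted p = 0.00158), and Scgb3a2 and Scgb1a1 no longer passed the filter.

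The filter had removed 5 members. Without the filter 6 of 10 member probe sets were called higher in embryo, where 8.12% of 22626 probe sets were. The added ones were Sftpa1 1422334_a_at at 2.76 ± 0.43, Ager at 2.74 ± 0.46 and Sftpb at 2.59 ± 0.47 (log2, SE, adjusted p = 0.00137, 0.00223 and 0.00379). With the filter, Sftpb also passed and was called in embryo, at 2.41 to 2.76, when 1 of several single arrays of other tissues was left out, and with Ager (2.63 ± 0.45) when the arrays labelled brain and liver were left out. Sftpa1 1429626_at at 1.06 ± 0.35 and Scgb3a1 at 1.08 ± 0.48 were not called. The stage of the embryo RNA was not given in the labels.

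In ovary Sftpd was called higher than in the other 6 tissues, by 2.84 ± 0.49 (log2, SE, adjusted p = 0.00247, limma), where 9.97% of probe sets were called higher. It passed the filter together with ovary, its mean over the other 6 tissues being 331. Its 2 ovary values, 1976 and 3299, were above all 12 values of the other 6 tissues, of which the highest was 1506 in embryo by one-cycle. Of the 5 members tested no other was called higher in ovary and none in heart, kidney, spleen or the arrays labelled brain and liver. There were 6 calls of a lower level in those tissues, for Sftpc in kidney, spleen and labelled liver, Scgb1a1 in heart and labelled brain, and Scgb3a2 in labelled liver. In either direction 23.2% of probe sets were called in heart, 22.8% in kidney, 35% in spleen, 33.8% in labelled brain and 34.9% in labelled liver. The reference mean of those contrasts included embryo. Without the embryo arrays Sftpd was the only member to pass the filter, so the genes of those 6 calls were not tested. Sftpd was then called lower in heart (-1.25 ± 0.32) and in labelled liver (-1.05 ± 0.32, log2, SE). The reference mean of these 2 contrasts still held the high ovary arrays, through which Sftpd passed the filter. The share of all probe sets called is not given for fits without the embryo arrays or without single arrays. Nothing is therefore read from their calls of a lower level. Leaving out single arrays gave from 3 calls of a lower level (without the one-cycle array labelled brain) to 10 (without the BIIB embryo array).

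Other genes of the same cell types were often higher in lung too, but several were higher still in another tissue. The lists were written with earlier results of these data known, and members are left out of them. The filter on mean signal counted the lung arrays, so a gene high only in lung could pass through them. Over all 15180 probe sets tested 12.4% were called higher in lung, a share that stands beside every lung count below. The list counts are therefore a description. Of 11 alveolar type II genes tested all 11 were called higher in lung, with a median of 3.96 log2 against 0.05 over all probe sets. Slc34a2, the phosphate transporter of type II cells, rose by 6.50 ± 0.34 and Muc1, a mucin of the apical cell surface, by 4.99 ± 0.24. Cxcl15, a chemokine of lung epithelium, rose by 7.83 ± 0.31 (log2, SE). Lung was the highest of the 8 tissues under both protocols for 7 of the 11, and under neither for the other 4, Abca3, Napsa, Ctsh and S100g.

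All 10 alveolar type I genes tested were called higher, with a median of 3.80 log2. Among them were the junction gene Cldn18 at 6.81 ± 0.28 and the water channel Aqp5 at 6.25 ± 0.43. Lung was highest under both protocols for 7 of these 10, and for 6 of the 9 club and secretory genes called. Of 11 club and secretory airway genes 9 were called higher, such as Bpifa1 at 6.72 ± 0.34, the carbonyl reductase Cbr2 at 6.50 ± 0.50 and the cytochrome Cyp2f2 at 6.28 ± 0.27, while Cldn10 at 0.43 ± 0.35 and Agr2 at 0.03 ± 0.38 were not called (log2, SE). Of 7 ciliated airway genes 2 were called higher, Tppp3 at 4.15 ± 0.46 and Tekt1 at 2.12 ± 0.61. For Tekt1 lung was the highest tissue under 1 protocol only.

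**Figure D3:**
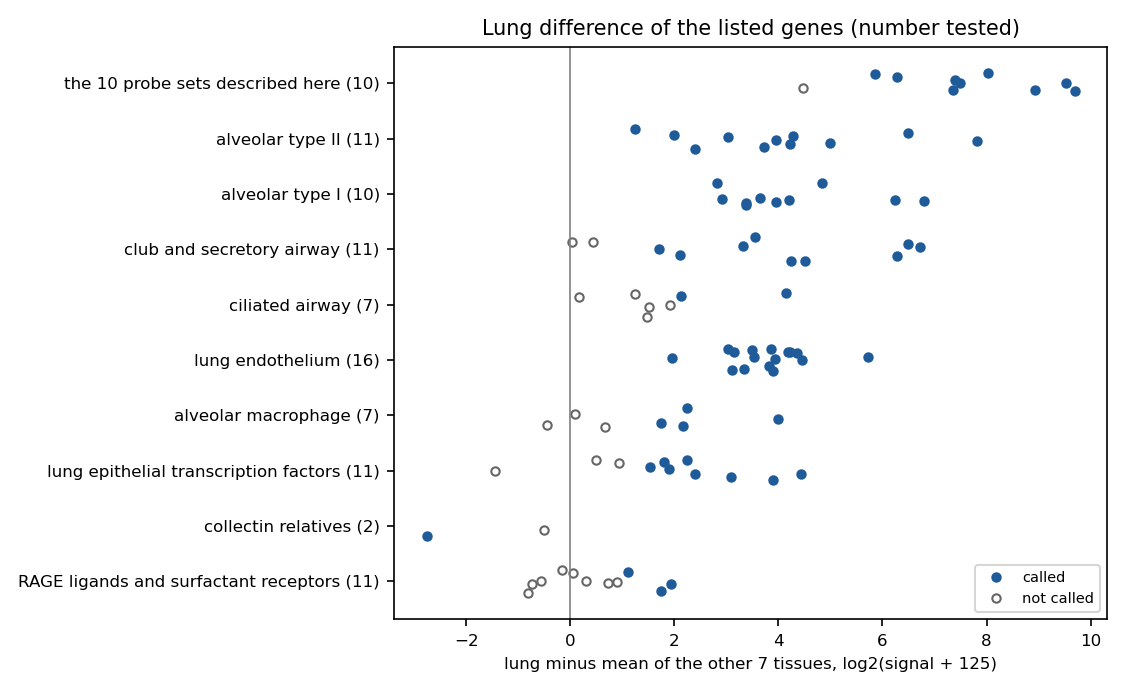
Lung minus the mean of the other 7 tissues on the log2 scale with a pseudocount (x axis) for the members and for the tested genes of 9 lists (y axis, number tested in brackets), 1 point per gene or member probe set; filled points were called, open points were not. All tested alveolar type I, type II and endothelial genes lie to the right of 0 and were called, while most genes of the ligand and receptor list were not.

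Of 11 lung epithelial transcription factors tested 8 were called higher, with a median of 1.90 log2. Lung was the highest tissue under both protocols for 4 of these 8. Foxa1 rose by 4.44 ± 0.43, Elf5 by 3.91 ± 0.35 and Foxa2 by 3.09 ± 0.44, and Sox9 at -1.45 ± 0.56 was not called (log2, SE). Nkx2-1 was too dim for the filter. Its lung signals of 549 and 689 were the highest of the 8 tissues under each protocol, though kidney read 374 and 569. Of 11 genes for RAGE ligands and surfactant or RAGE co-receptors 3 were called higher, and the median was 0.30. They were S100a6 at 1.94 ± 0.23, Tlr4 at 1.74 ± 0.46 and Cd14 at 1.11 ± 0.30. Lung was the highest tissue under both protocols for 0 of these 3.

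Markers of other cells also moved with the lung arrays. All 16 endothelial genes were called higher, and 4 of 7 alveolar macrophage genes. Lung was the highest tissue under both protocols for all 16 endothelial genes but for 0 of those 4 macrophage genes, and under neither protocol for 3 of the 4. The sum of the macrophage list was 34381 by one-cycle and 28499 by BIIB in lung, and highest in spleen, at 75900 and 78939. Of 8 heart muscle genes 6 were called higher in lung and Myl2 lower, and the list sum was 112558 and 231127 in lung, 1679575 and 3192966 in heart, 200849 and 204339 in embryo, and at most 5414 in the other 5 tissues. Myl7 rose by 5.33 ± 0.33 and Myh6 by 5.10 ± 0.75 (log2, SE). Myl2 read only 162 in lung by one-cycle and 12.2 by BIIB, and Mybpc3, which was not called, read 766 and 455. The part of these other cells in the member results was not tested.

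In embryo, where muscle, liver and embryonic marker lists were high as well, 5 of 8 alveolar type I genes, 2 of 9 type II genes and 6 of 9 club and secretory genes were called higher than in the other 6 tissues with lung left out. Over all probe sets tested 10.8% were called higher there. The filter counted the embryo arrays, so these counts are a description too. Bpifb1 at 4.00 ± 0.47 and Bpifa1 at 3.86 ± 0.35 were the largest of the club list, and Slc34a2 at 1.97 ± 0.35 of the type II list. Napsa, an aspartic protease of type II cells, at -1.27 ± 0.27, and Aldh1a1, a retinal-oxidising enzyme, at -2.90 ± 0.24 were called lower (log2, SE).

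The genes whose pattern over the 16 tissue arrays was most like the members' were found by Pearson correlation of log2 values with the mean profile of the members, over 9242 genes. For the surfactant genes and Ager the nearest were Cxcl15 (r = 0.978), Bpifa1 (0.964), Slc34a2 (0.957), Cldn18 (0.950) and Rasl12 (0.910). For the secretoglobins they were Cxcl15 (r = 0.985), Bpifa1 (0.966), Slc34a2 (0.956), Cldn18 (0.927) and Scel (0.924). All these values rest on the same 16 arrays and largely on the 2 lung and 2 embryo arrays, and are given as a description. Cxcl15 read 78277 and 46805 in lung, 2486 and 755 in embryo and at most 309 elsewhere. Rasl12 read 3165 and 3394 in lung, a much smaller rise of 2.40 ± 0.28 (log2, SE).

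On the other 87 arrays no member reached its lung level, Sftpc 1438290_x_at by one-cycle aside. In universal RNA from 500 pg upwards (40 arrays) member medians ran from 39.8 for Sftpc 1438290_x_at to 209 for Sftpb, and the highest single value was 1941, for Sftpb. Below 500 pg (18 arrays) the medians ran from 53.8 to 333 but single arrays reached 4539 for Scgb3a1, 3830 for Sftpa1 1429626_at and 2887 for Sftpc 1418639_at. The highest value came from a two-cycle or Ovation array of 50 pg for 9 of the 10 probe sets and from a BIIB array of 10 pg for Scgb1a1. In RAW267 cells no member exceeded 615.

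**Figure D4:**
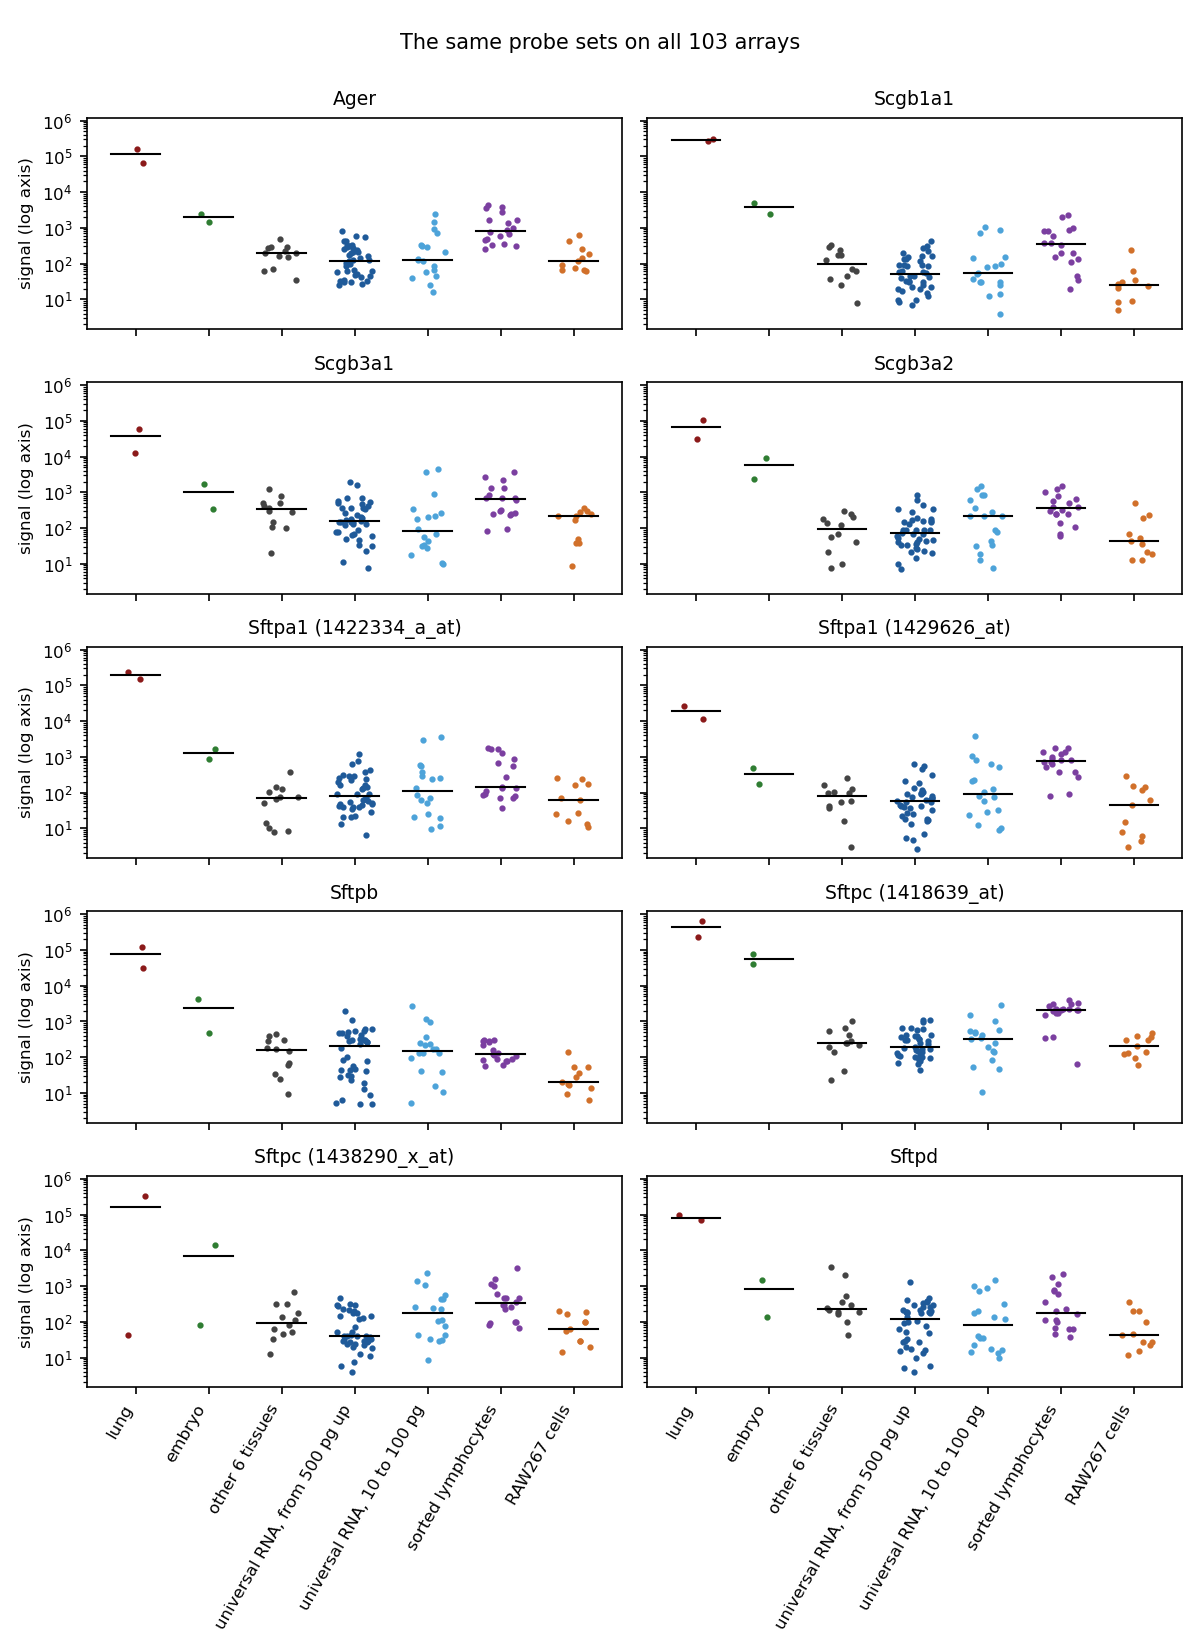
Signal of each member probe set (y axis, arbitrary units, log axis) on all 103 arrays, grouped on the x axis as lung (2 arrays), embryo (2), the other 6 tissues (12), universal RNA from 500 pg up (40) and from 10 to 100 pg (18), sorted lymphocytes (18) and RAW267 cells (11); points are arrays and black lines are medians. Apart from 1 lung array for Sftpc 1438290_x_at, lung lies above every array outside lung and embryo, and the lymphocyte points of Sftpc 1418639_at lie mostly between 1559 and 3980.

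With the filter and all arrays, tests of these sets gave no member call by limma, and in universal RNA at most 5 members could be tested. In BIIB 5 ng against one-cycle 1 ug, BIIB 10 pg against 5 ng and the RAW267 trend on cell number, no member passed the filter. For 50 pg against 500 ng, 0 of 5 members tested were called with two-cycle (0.193% of all probe sets called in either direction), 0 of 1 with Ovation (26.8%) and 0 of 2 with RiboAmp HS (14.2%). At an unadjusted p under 0.05 there were 2 with two-cycle, 1 with Ovation and 1 with RiboAmp HS. Of all probe sets tested, 24.8%, 39.9% and 34.7% were under it, so nothing is read from these counts. The 2 with two-cycle were Ager at 3.06 ± 0.72 (log2, SE, adjusted p = 0.0941) and Sftpd at 2.26 ± 0.65 (adjusted p = 0.123, limma). Scgb3a1, at 2.44 ± 1.13 (adjusted p = 0.224), was not among them. Without replicate 1 of two-cycle 50 pg, 3 were called, both Sftpa1 probe sets and Sftpb, the last at 2.64 ± 0.95 (adjusted p = 0.0437), but 35.1% of all probe sets were called higher in that setting. With Ovation 2 were called without replicate 2 of 50 pg, Scgb3a1 at 4.26 ± 0.63 (adjusted p = 0.00215) and Sftpc 1418639_at at 3.07 ± 0.85 (adjusted p = 0.0211), where 25.8% of all probe sets were called higher. Without replicate 2 of 5 ng (8.01% called higher) or replicate 1 of 500 pg (13.4%), 1 was called, Sftpc 1438290_x_at at 2.91. Without the filter 4 of 10 were called higher at 50 pg with Ovation, where 12.3% of all probe sets were. They were Scgb3a2 at 2.96 ± 0.62, Sftpc 1438290_x_at at 2.91 ± 0.66, Sftpa1 1429626_at at 2.45 ± 0.67 and Sftpd at 1.69 ± 0.52 (log2, SE). Without the filter Sftpb was also called lower by BIIB from 5 ng than by one-cycle, at -1.23 ± 0.31 (log2, SE, adjusted p = 0.00807), where 21.2% were called lower.

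In sorted lymphocytes, Sftpc 1418639_at had a median signal of 2066 over 18 arrays, with a lowest value of 64.5 and a highest of 3980. The same probe set had a median of 203 in RAW267 cells and 281 in the 24 BIIB arrays of universal RNA. The median of all probe sets was also higher on lymphocyte arrays, at 1002 against 489 for RAW267 and 496 for universal BIIB arrays. Every other member probe set likewise had a higher median in lymphocytes than in those other sets. The levels differed, and Sftpb was the lowest, with a lymphocyte median of 120 and a highest value of 310. Its median was 19.7 in RAW267 cells and 40.5 in universal BIIB arrays. The part of the higher array medians in these member levels was not tested.

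The lymphocyte test covered unmixed cells, and no test was run over the mixing ratios. Between unmixed B and T cells of 100 cells, 0 of 7 members tested were called by limma. Of 18327 probe sets, 0.24% were called in either direction and 6.55% had an unadjusted p under 0.05. Among the members 1 had such a p, Sftpa1 1422334_a_at at -2.87 ± 1.26 (log2, SE, adjusted p = 0.722). That probe set read 1643 and 1820 on the 2 T cell arrays of 100 cells, 37.6 and 268 on the 2 B cell arrays, and then 88.8 on the T cell and 1258 on the B cell array of 500 cells, the opposite order. Ager read 4264 and 3578 on the arrays of 60 T and 40 B cells, 500.3 and 3764 on those of 40 T and 60 B cells, and 363 and 467 with T cells alone and 895 and 2812 with B cells alone. For comparison, the lowest lung value of Ager was 66193.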

How the data were processed

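Members and lists were chosen with earlier results of these data known. The authors deposited 1 MAS5 signal intensity per probe set and array, on a linear scale, per the submitters' processing notes (its settings are not given in the sources used). The trimmed mean of each array lay between 2500.23 and 2502.45 (outer 2% left out) and was set to 2501. Symbols came from the platform annotation, and probe sets with several were not named. Tests used log2(signal + 125), which understates changes of dim probe sets, with limma 3.58.1 in R 4.3.3 (lmFit, eBayes, two-sided), over probe sets of mean signal 500 or more in the arrays of a fit and without 64 control probe sets. A call needed an adjusted p (Benjamini-Hochberg) below 0.05 with a change of 2-fold or more. Tissue fits had tissue and protocol as terms over 16 arrays, or 14 without lung. They share arrays, so no overlap between them is given. The lung fit was tested on simulated data. Named genes were the members, the list genes with the largest called changes and the 5 most alike in profile per group. List genes given as not called, called lower or not highest in lung, Nkx2-1 and Mbl1, were named after their values were seen. For a list gene with more than 1 probe set, the one of highest mean signal stood for it. Same-numbered universal RNA replicates were not treated as pairs: deviations of groups of 4 correlated at -0.0305 to 0.0214, and sets with 2 numbers are too few to decide. The number of arrays limits precision.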

Additional observations from a re-analysis of the deposited data

Results flagged for a closer look

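In universal RNA, 70 groups of 4 arrays (10 probe sets in 7 groups) were searched for a single array far from the other 3, and 9 were found. Chance gives about 1 in 20. Scgb1a1 in replicate 1 of BIIB 10 pg read 1038.2, where the others read 12.6 to 36.7. Sftpa1 1422334_a_at in replicate 4 of BIIB 50 pg read 584.1 against 9.9 to 26.1. Sftpd stood high in replicate 3 of BIIB 5 ng (185.1), replicate 3 of 1 ng (302.1) and replicate 4 of 100 pg (117.1), where no other array exceeded 26.9. Scgb3a1 stood high in replicate 3 of BIIB 1 ng, at 367.9, and in replicate 1 of 500 pg, at 146.4. In replicate 1 of one-cycle 1 ug, Sftpc 1438290_x_at was high at 127.0 and Sftpa1 1429626_at low at 5.5.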

How the results depend on the processing

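The lung call of 9 of 10 member probe sets held with a pseudocount of 32, quantile normalization, no filter, a filter at 1000, without the embryo arrays and without those labelled brain and liver, was 10 with a pseudocount of 500, and stayed at 9 to 10 when each array was left out. Within a protocol it fell to 1 (one-cycle alone) and 0 (BIIB alone), since 1 lung array then faces a spread over 7 tissues; every tested member stayed above 0 there. Leaving out each array gave 8 to 10 members called in lung against every tissue. Sftpc 1438290_x_at depended on the protocol: its lung difference was -0.5951 without the BIIB lung array and 9.5289 without the one-cycle one. The protocol difference in lung had 0 to 1 member calls when single arrays were left out and 1 without the embryo arrays. Of traces, 4 calls of a higher level became 7 without the filter, 1 with the filter at 1000, 1 without the embryo arrays and 2 with BIIB arrays alone, and 3 to 5 when single arrays were left out; fewer members pass the filter in some of these. Sftpd in embryo, not called, was -0.7691 without the one-cycle embryo array and with BIIB alone, and 1.7131 without the BIIB one. In universal RNA, no filter gave 1 member call for BIIB 5 ng against one-cycle and 4 for Ovation. Leaving out single arrays gave 0 to 3 for two-cycle and 0 to 2 for Ovation. With the replicate block, member calls stayed at 0 in all 7 comparisons of universal RNA, lymphocytes and RAW267 cells. Deviations of same-numbered two-cycle arrays correlated at 0.114, with 2 numbers, and those of the other sets at -0.0474 to 0.0547; no pairing was taken from them. Other causes of these changes were not tested. With 1 array per tissue and protocol, the number of arrays limits precision, and settings that leave 1 array of a tissue assume that it varies like the others. Whether low signals outside lung and embryo are transcript or background was not tested.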
